A study of Musca domestica with 8 samples.

Results

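Of the 35834 contigs of the assembled transcriptome of the spinosad resistant housefly strain 791spin, 23 carry an annotation with the word lysozyme or cathepsin, and these are described over 8 samples. Together they match 8 different protein entries. Lysozymes account for 7 contigs, cathepsin B for 2, cathepsin F for 4 and cathepsin L for 3. The remaining 7 contigs match CBBP, a protein of the flesh fly *Sarcophaga peregrina* named for binding the 3' untranslated region of cathepsin B mRNA, and are not cathepsins themselves. No contig is annotated as cathepsin D or as an invertebrate-type lysozyme. The entries of only 2 contigs come from *Musca domestica*. The others come from *Sarcophaga*, the tsetse fly *Glossina morsitans morsitans* and the wheat bulb fly *Delia coarctata*, so a name gives the best protein match and not a proven identity. A contig that was matched to a gene model without a descriptive name is not included.

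All samples, No.1 to No.8, bear a single strain label. 791spin was derived by spinosad selection from the multi-resistant strain 791a of Danish origin, and the labels describe whole bodies of about 60 pooled adults of both sexes, 5 to 7 days old and kept on sugar. No susceptible flies are among the samples used here, so no groups were compared and the question was how each protein varied among the samples. The labels name no separate cultures, so tests measure only the spread between these samples, and how much of it is technical is not known. They give the same normalized cDNA library for Roche pyrosequencing for every sample, but each sample has more counts than that sequencing run gave reads. The preparation of the reads that were counted is therefore not known. In RNA of whole flies, fewer cells of a type and less RNA per cell cannot be told apart.

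Lysozymes cut the peptidoglycan of bacterial cell walls. In the housefly and other higher flies they serve digestion as well as defence: bacteria taken up with decaying food are broken down in the acidic middle midgut by lysozyme and by a cathepsin D-like aspartic proteinase. Cathepsins B, F and L are cysteine peptidases of the papain family, made as inactive proenzymes and best known from the lysosome, where they degrade proteins. Cystatins inhibit them and the vacuolar proton ATPase keeps the lysosome acidic.

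Between 10266664 and 16115208 counts fell on contigs per sample, and counts were scaled to 1000000 per sample (CPM). In these units 3 counts, taken as the floor of detection, were 0.186 to 0.292 CPM. The mixed sex of the pools did not show as a constant level of female transcripts. The 31 contigs annotated as yolk protein or vitellogenin summed to 20.2, 207.5, 7.76, 2811, 126.4, 1827, 29.6 and 3935 CPM in No.1 to No.8. Each of No.2, No.4, No.6 and No.8 was above each of the other samples, and the extremes rested on 81 counts in No.3 and 43178 counts in No.8. The 7 chorion and vitelline contigs had no counts in No.7 and 4352 counts in No.8. The part of these differences in the values below was not tested. The factors of TMM, a normalization on the bulk of the contigs by which CPM values would be divided, were on the log2 scale 0.27 in No.3, -0.27 in No.5 and -0.08 to 0.04 in the remaining samples. Where TMM moves the highest sample of a member described below, this is stated, and sums over other genes are in CPM unless TMM is named.

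All 23 contigs were counted in at least 1 sample, and 20 of them in every sample. Variation beyond counting error was tested by chi-square, each contig's counts in the 8 samples being set against the sample totals, with Benjamini-Hochberg adjustment over the 23597 contigs averaging 5 counts or more. Of the members 22 could be tested and all 22 were called, but so were 95.1% of all contigs, so the count says little about lysozymes and cathepsins in particular. The size of the variation was also close to that of the transcriptome. The median contig-wise dispersion, estimated by edgeR without groups, was 0.265 for the 22 members and 0.303 for all contigs tested, and 10 of the 22 members lay above 0.303. For the better counted contigs, those averaging 50 or more counts, the highest sample exceeded the lowest by a median of 4.07-fold over 18 members and 4.001-fold over all 11890. The most even was the lysozyme contig M_dom_rep_c12255 with 1.98-fold and the least even the cathepsin L contig M_dom_rep_c28758 with 141-fold.

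Summed over contigs, the lysozymes had 275.5, 205.6, 268.3, 258.2, 600.1, 503.5, 401.2 and 1046 CPM in No.1 to No.8. They were low in No.1 to No.4 and higher in each of the other samples. Cathepsin B had 214.3, 266.4, 499.2, 447.5, 302.4, 360.6, 297.7 and 250.2 CPM. Here No.3 and No.4 were highest (with TMM, No.4 before No.3), samples in which lysozymes were low. Cathepsin F had 59.0, 57.9, 130.7, 97.7, 84.3, 79.97, 65.7 and 61.8 CPM in the same order, again with No.3 and No.4 on top, although with TMM No.5 came before No.4. Cathepsin L reached only 5.83 and 8.91 CPM in No.1 and No.2, and 31.3 to 59.0 CPM in the rest. CBBP was highest in No.2 with 774.4 CPM, and had 154.6 to 325.5 CPM elsewhere. All members together took 831.8 CPM in No.1 to 1742 CPM in No.8, or 0.121% of the counts on average.

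**Figure D1:**
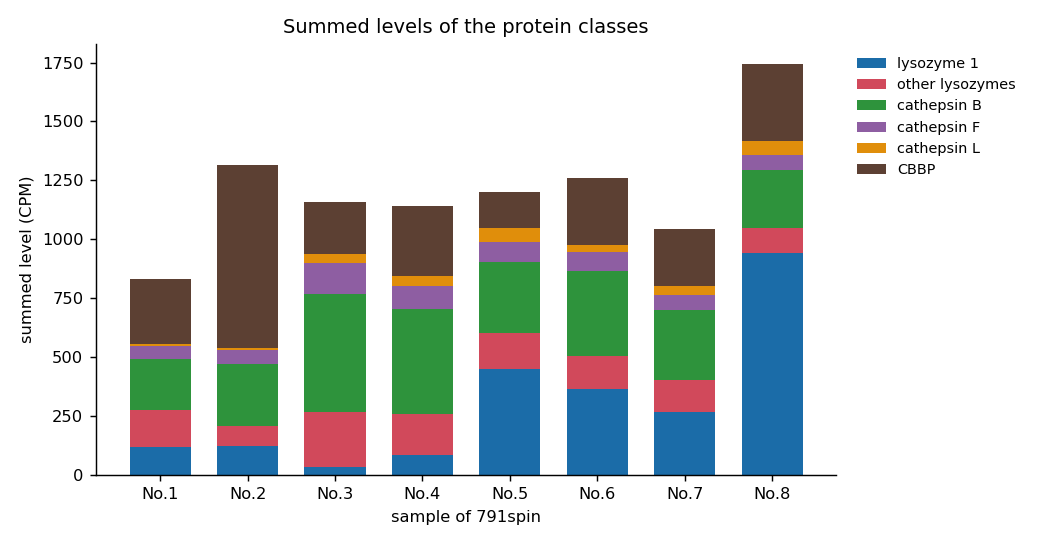
Summed level in CPM (y axis, linear) of each protein class in the 8 samples of 791spin (x axis), stacked. Lysozyme 1 makes up 940.4 CPM of the bar of No.8 and 31.0 CPM of that of No.3, and CBBP makes up 774.4 CPM of the bar of No.2.

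Lysozyme 1 of *M. domestica* was matched by a single contig, M_dom_c1918, of 474 bp. It had 119.8, 122.9, 31.0, 83.8, 448, 365.8, 265.8 and 940.4 CPM in No.1 to No.8. Each of No.5 to No.8 was above each of No.1 to No.4, a division that no label names. It was noticed in the values, and the share of all contigs divided in the same way was not counted. The 3 contigs closest in profile, described below, show the same division. They were chosen for their likeness in these same samples, so this is no separate support for it. For lysozyme 1 the highest sample exceeded the lowest 30.3-fold (exact 95% interval for counting error 27.1 to 33.9), and 94.6% of the better counted contigs had at most this ratio. The mean was 297 ± 298 CPM (SD, n = 8). The make-up of the lysozyme counts differed as widely. Lysozyme 1 took 11.6% of them in No.3 (Wilson 95% interval 10.4 to 12.8%) and 89.9% in No.8 (89.4 to 90.5%), with a median over the samples of 63.0%.

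The second housefly entry, named only lysozyme, was matched by M_dom_c25967, the shortest member with 362 bp. Its level was 45.7, 3.45, 15.0, 6.98, 12.5, 9.64, 7.75 and 5.47 CPM in No.1 to No.8. No.1 stood above all others, and No.2, which had about as much lysozyme 1 as No.1, was the lowest. The ratio between these 2 samples was 13.2 (exact 95% interval for counting error 9.94 to 18.01), from 737 and 50 counts.

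The other 5 lysozyme contigs share the match to a lysozyme precursor of *Glossina* and were much more even. Their sum was 109.96, 79.3, 222.2, 167.4, 139.6, 128, 127.6 and 99.9 CPM in No.1 to No.8, with a mean of 134.2 ± 44.3 CPM (SD, n = 8). No.3, the lowest sample for lysozyme 1, was the highest for these contigs, and No.8, the highest for lysozyme 1, was the lowest but for No.2.

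The most counted of them, M_dom_rep_c8926 (844 bp), had 64.2, 38.0, 132.2, 88.6, 79.9, 71.6, 47.7 and 54.2 CPM in No.1 to No.8. M_dom_rep_c12255 (791 bp) had 37.2, 35.5, 70.2, 62.2, 50.3, 47.1, 65.4 and 36.1 CPM, highest in No.3 in CPM but in No.7 with TMM. M_dom_rep_c8926 was the higher in every sample but No.7, where its share of the counts on the 5 contigs fell to 37.4% (Wilson 95% interval 35.0 to 39.9%). In the other samples this share was 47.9% to 59.5%. M_dom_rep_c18244 ranged over 2.42 to 13.03 CPM and M_dom_rep_c34665 over 2.37 to 8.02 CPM. M_dom_rep_c26767 had 30 counts in No.1, 11 in No.2, at most 5 in any other sample and none in No.4 and No.8, where a count of 0 allows up to 0.283 and 0.273 CPM. Without No.1 its mean count was below the minimum for testing.

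**Figure D2:**
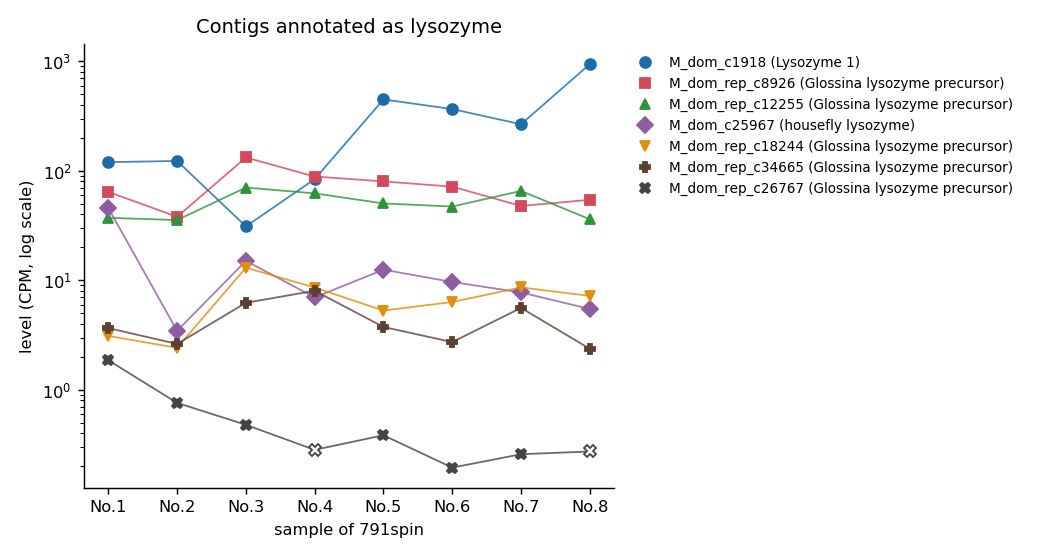
Level in CPM (y axis, log scale) of the 7 lysozyme contigs in the 8 samples (x axis). Open symbols stand for samples without counts, drawn at the level of 3 counts, and lines only join the points of a contig. Lysozyme 1 (M_dom_c1918) spans 31.0 to 940.4 CPM, whereas M_dom_rep_c12255 stays between 35.5 and 70.2 CPM.

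Contigs with a profile like that of lysozyme 1 were sought, without a threshold for what counts as close. Likeness was measured as the root mean square difference of log2(CPM + 0.5) over the 8 samples, each contig being centred on its own mean, among the 11872 contigs averaging 50 counts or more that are not members. The closest was M_dom_rep_c8536, annotated as a serine/threonine kinase receptor-associated protein of *Glossina*, with a difference of 0.75. It was followed by M_dom_rep_c24177, matched to a hypothetical protein of *Mycobacterium*, with 0.75, and by M_dom_c34087, matched to a predicted protein of the fungus *Sclerotinia sclerotiorum*, with 0.76. Lysozyme 1 itself deviated from its mean by 1.45 on this scale, and the median difference over all contigs was 1.65. All of these contigs share the 8 libraries, and the measure carries no test. For cathepsin D the same search could not be made, since no contig has that name.

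Pro-cathepsin B of *Sarcophaga* was matched by M_dom_c469 (1309 bp), the most counted member with 30089 counts. It had 211.8, 263.2, 495.3, 444, 300.6, 358.8, 296.3 and 249.4 CPM in No.1 to No.8, a mean of 327 ± 98.6 CPM (SD, n = 8). No sample stood apart, and with TMM the highest was No.4 instead of No.3. The highest exceeded the lowest 2.34-fold, and only 17.1% of the better counted contigs had at most this ratio. It held 98.8% to 99.7% of the cathepsin B counts. The second contig, M_dom_rep_c9801 (972 bp), ranged over 0.82 to 3.93 CPM and was highest in No.3, or in No.4 with TMM.

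Counts of lysozyme 1 per count of cathepsin B, which do not depend on the scaling of a sample, were 0.559, 0.461, 0.0622, 0.187, 1.48, 1.015, 0.893 and 3.76 in No.1 to No.8. The samples stood in the same order as for lysozyme 1 alone, except that No.1 and No.2 changed places.

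Cathepsin F of *Glossina* was matched by 4 contigs that followed a common course. M_dom_c2493 (1926 bp) had 28.4, 27.4, 62.2, 46.2, 39.0, 35.2, 31.5 and 29.5 CPM in No.1 to No.8 and held 44.0% to 48.1% of the cathepsin F counts. M_dom_rep_c8124 (766 bp) had 8.81, 12.2, 27.5, 19.6, 17.7, 21.6, 12.9 and 14.1 CPM. M_dom_rep_c13275 (768 bp) ranged over 7.32 to 24.1 CPM, from its lowest level in No.1 to its highest in No.3. All of the cathepsin F contigs were highest in No.3 in CPM, but with TMM M_dom_rep_c8124 was highest in No.6 and M_dom_c18998 in No.1. Their highest to lowest ratios lay between 2.27 and 3.30. M_dom_c18998 (1863 bp) differed in No.1, where it had 14.5 CPM, its second highest value, and 24.6% of the cathepsin F counts, against 9.26% at the lowest.

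Cathepsin L of *Sarcophaga* was matched by a pair of contigs with contrasting profiles. M_dom_rep_c28758 (974 bp) had 0.372, 0.69, 6.995, 10.2, 47.7, 22.3, 31.2 and 52.6 CPM in No.1 to No.8. The lowest value rested on 6 counts, so the ratio of 141 between No.8 and No.1 had an exact 95% interval for counting error of 64.5 to 386. With TMM No.5 was highest. As with lysozyme 1, each of No.5 to No.8 was above each of No.1 to No.4. The contig closest to it in profile outside the members, M_dom_rep_c29746, shows the same division. That contig was chosen for its likeness in these same samples, so this is no separate support for the division. The share of all contigs divided in this way was not counted.

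M_dom_rep_c11756 (1487 bp) had 4.59, 7.39, 29.9, 31.1, 10.9, 8.08, 3.96 and 6.20 CPM in No.1 to No.8. It was highest in No.3 and No.4, as were cathepsin B and, in CPM but not with TMM, cathepsin F. M_dom_rep_c28758 took 7.5% of the counts of the pair in No.1 (Wilson 95% interval 3.48 to 15.4%), 8.55% in No.2, 18.96% in No.3 and 24.7% in No.4 (20.9 to 28.9%). In No.6 the share was 73.4% (68.2 to 78.0%), and in No.5, No.7 and No.8 it was 81.4%, 88.8% and 89.5%. The intervals of No.1 to No.4 and of No.5 to No.8 did not overlap, so which of the contigs prevailed differed between samples beyond counting error. This division of the samples was itself noticed in the values, so the gap is no separate support for it. Whether the pair are different genes, alleles or parts of a single transcript cannot be told apart from names and lengths.

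The third cathepsin L contig, M_dom_rep_c15408 (542 bp), resembled a cathepsin L-like proteinase of *Delia* and was scarcely counted. It had 14, 12, 4, 7, 5, 9, 1 and 0 counts in No.1 to No.8, or at most 0.877 CPM, and a count of 0 in No.8 allows up to 0.273 CPM. It was the weakest call among the members with a chi-square of 2.64 per degree of freedom (Benjamini-Hochberg adjusted over all contigs, p = 0.0108), and it was not called without No.7 (adjusted p = 0.0665) or without No.8 (adjusted p = 0.115).

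**Figure D3:**
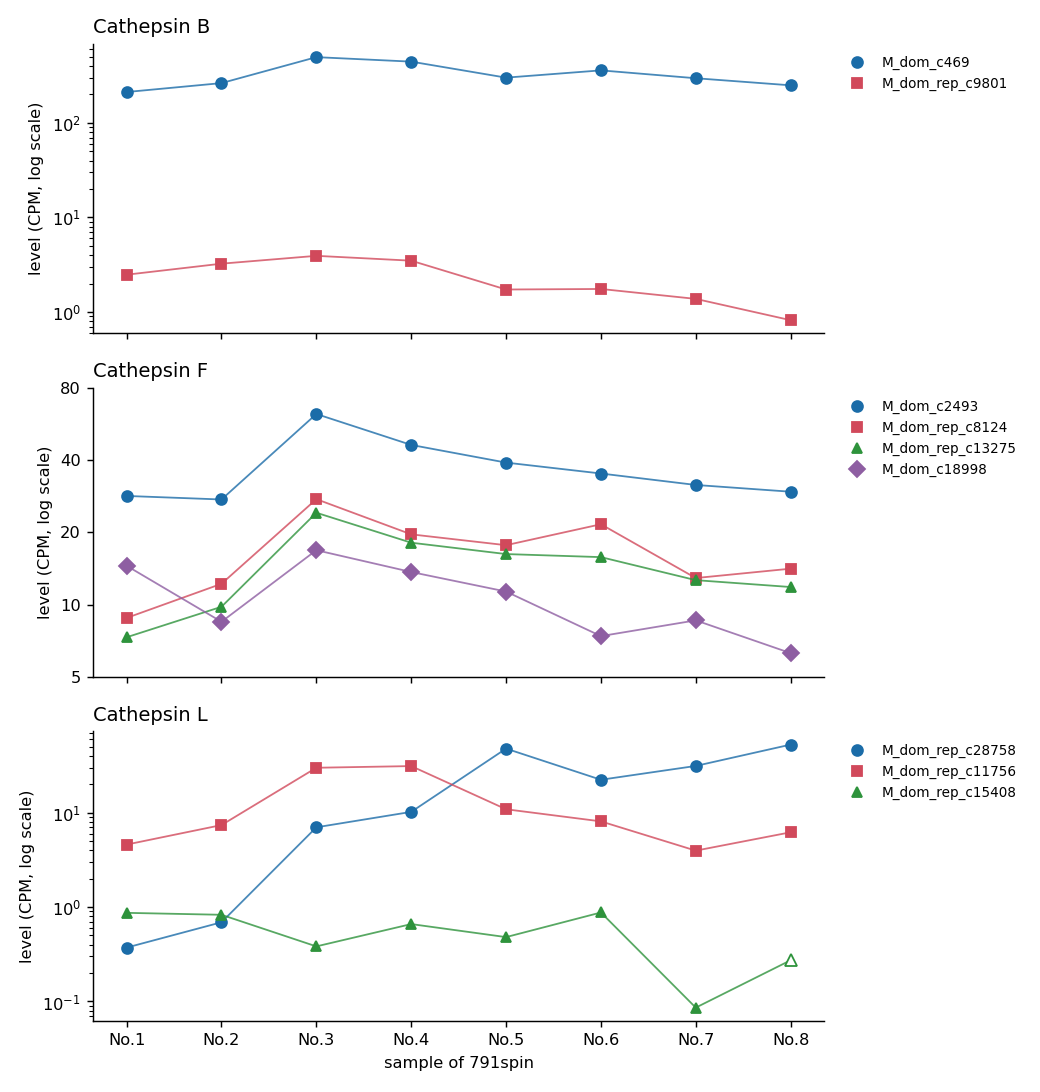
Level in CPM (y axes, log scale, a different range in each panel) of the contigs annotated as cathepsin B, cathepsin F and cathepsin L in the 8 samples (x axis). The open symbol is a sample without counts, drawn at the level of 3 counts, and lines only join the points of a contig. The main cathepsin B contig stays between 211.8 and 495.3 CPM, whereas M_dom_rep_c28758 of cathepsin L spans 0.372 to 52.6 CPM and crosses M_dom_rep_c11756.

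CBBP of *Sarcophaga*, by its name a protein that binds cathepsin B mRNA and not a peptidase, was matched by 7 contigs, of which 6 followed 2 patterns. M_dom_rep_c5500 (2898 bp, the longest member) had 120.9, 258.2, 106.5, 112, 69.4, 109.8, 99.2 and 120.6 CPM in No.1 to No.8. M_dom_rep_c14513 (854 bp) had 97.5, 362.2, 40.3, 60.9, 49.4, 93.2, 72.9 and 105.4 CPM. M_dom_rep_c16181 (687 bp) was highest in the same sample, with 124.5 CPM in No.2 and 15.1 to 46.0 CPM elsewhere. These contigs set No.2 apart from all other samples.

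M_dom_rep_c13274 (609 bp) had 7.76, 19.4, 41.5, 75.9, 13.7, 33.3, 33.7 and 38.3 CPM in No.1 to No.8. It was lowest in No.1 and highest in No.4. The same extremes were found for M_dom_rep_c13873, with 4.53 and 20.005 CPM, and for M_dom_rep_c16271, with 0.310 and 2.74 CPM. The number of M_dom_rep_c14513 counts per M_dom_rep_c13274 count was 12.6 and 18.7 in No.1 and No.2, but 0.972 and 0.802 in No.3 and No.4, and 2.17 to 3.62 in No.5 to No.8. The seventh contig, M_dom_rep_c29466, had 21 counts in all, 7 of them in No.8, and was not tested.

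**Figure D4:**
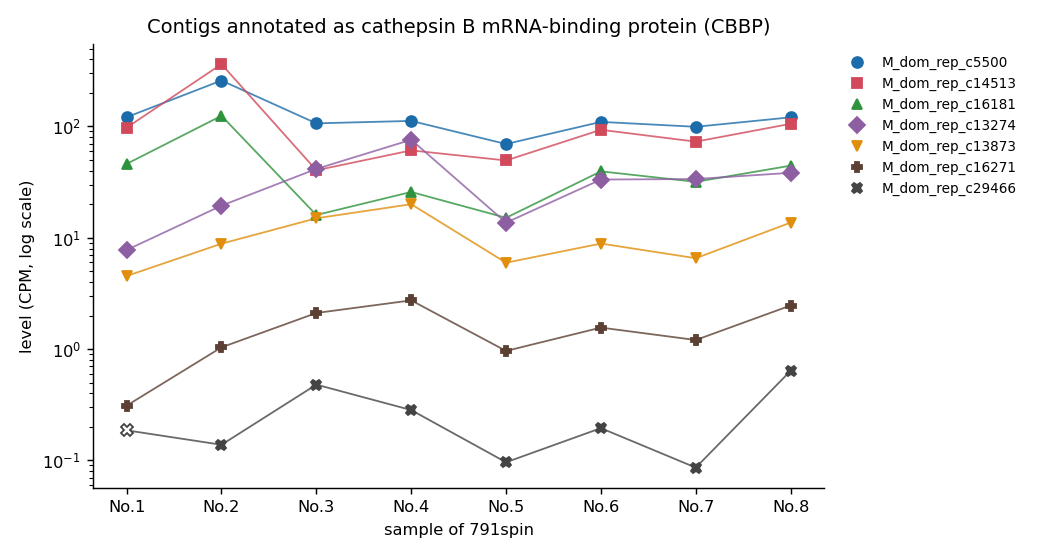
Level in CPM (y axis, log scale) of the 7 contigs annotated as CBBP in the 8 samples (x axis). The open symbol is a sample without counts, drawn at the level of 3 counts, and lines only join the points of a contig. M_dom_rep_c5500, M_dom_rep_c14513 and M_dom_rep_c16181 peak in No.2, whereas M_dom_rep_c13274, M_dom_rep_c13873 and M_dom_rep_c16271 are highest in No.4.

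For an order of the protein classes, levels were divided by contig length, using the most counted contig of each class. The sums, shares and counts per count given above were not divided by length. In CPM per kilobase, lysozyme 1 had 627 ± 628, cathepsin B 250.1 ± 75.3, CBBP 43.0 ± 19.5, cathepsin L 22.1 ± 21.1 and cathepsin F 19.4 ± 6.14 (SD, n = 8). Of the neighbours in this order, only cathepsin B and CBBP differed by more than the spread between samples. Cathepsin B was above CBBP in 8 of 8 samples, with a mean log2 difference of 2.58 ± 0.76 (SD). Lysozyme 1 was above cathepsin B in 6 of 8 samples (log2 difference 0.72 ± 1.82), CBBP above cathepsin L in 6 of 8 (2.17 ± 3.10) and cathepsin L above cathepsin F in 4 of 8 (-1.07 ± 2.66). With all contigs of a class, summed counts over summed length were higher for cathepsin B than for the lysozymes, at 144.6 and 101.3 CPM per kilobase, and higher for cathepsin F than for cathepsin L, at 14.96 and 11.6 CPM per kilobase. Within CBBP the shorter M_dom_rep_c14513 had 129 CPM per kilobase, more than the contig with the most counts. Per kilobase it lay above the main cathepsin B contig in No.2, so cathepsin B being above CBBP in 8 of 8 samples depends on the CBBP contig used. Library normalization, which the labels describe, lowers abundant transcripts, and whether the counted reads went through it is not known.

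Where the extremes fell depended on the sample. Of the 18 better counted members, 8 were highest in No.3 and 4 in No.4. Contigs that share a match are not independent, and those highest in No.3 match only cathepsin B, cathepsin F and the *Glossina* lysozyme precursor. Among all contigs 21.4% were highest in No.3 and 6.66% in No.4. For No.3 the number depends on the scaling, as TMM left 4 members and 9.44% of all contigs highest there, and M_dom_c469 moved to No.4. The most even members were M_dom_rep_c12255, M_dom_c2493, M_dom_c469, M_dom_c18998 and M_dom_rep_c8124, that is a lysozyme, cathepsin B and cathepsin F. The least even were M_dom_rep_c28758, M_dom_c1918, M_dom_c25967, M_dom_rep_c13274 and M_dom_rep_c14513.

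**Figure D5:**
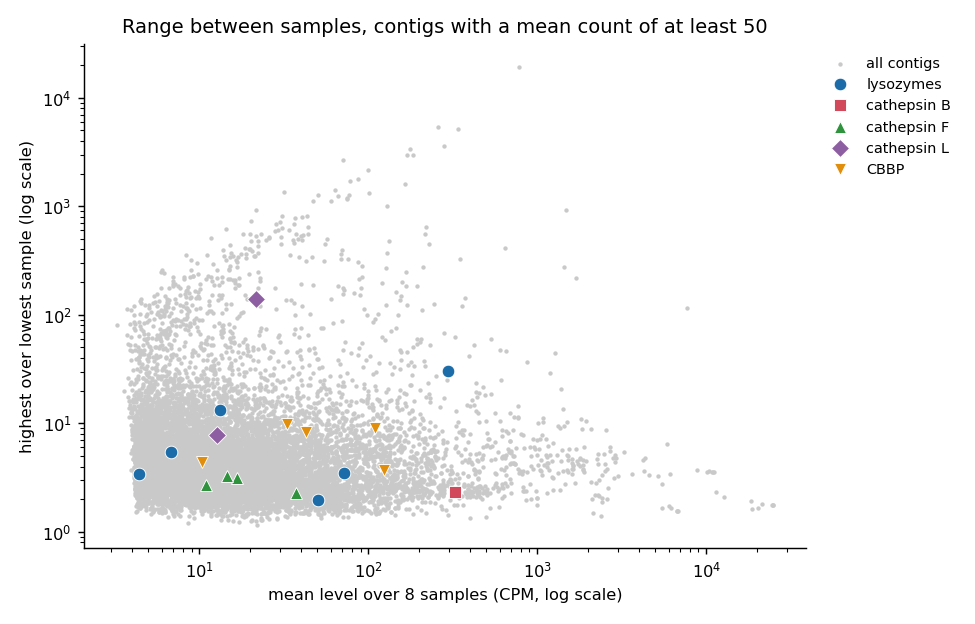
Highest over lowest sample (y axis, log scale) against the mean level in CPM over 8 samples (x axis, log scale) for 11890 contigs averaging 50 counts or more (grey) and the 18 members among them (coloured by class). Samples under 3 counts enter the ratio with 3 counts. Only 3 members exceed a ratio of 10, as do 16.2% of all contigs.

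Other genes of digestion and of the lysosome were taken by words in their annotation. Since the name cathepsin D is missing, the aspartic proteinases of *M. domestica*, the family to which cathepsin D belongs, were added after the values were seen. Their 19 contigs summed to 696.8, 520.7, 1174, 1592, 956.3, 933.3, 1022 and 826.6 CPM in No.1 to No.8. In CPM, No.4 and No.3 were highest, the pair of samples in which lysozyme 1 was lowest, and No.2 was lowest. With TMM No.4 stayed highest, but No.3 came after No.5, No.6 and No.7, so the pairing of No.3 with No.4 depends on the scaling. Of the 13 contigs tested, 12 varied beyond counting error.

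The trypsins and chymotrypsins, serine proteases of the midgut, had 27 of 27 tested contigs called and summed to 1630.1 and 2443 CPM in No.1 and No.2 and to 3109 to 5365 CPM elsewhere. The amylases, maltases and glucosidases, which digest starch and sugars, had 16 of 16 called and 2081 CPM in No.2 to 11501 CPM in No.1. The peritrophins, proteins of the membrane that lines the midgut, had 4 of 4 called and 247.8 CPM in No.2 to 1455 CPM in No.6. The lowest sample was thus No.1 for the trypsins and chymotrypsins, and No.2 for the other lists of this paragraph. No common low in No.1 was seen, as No.1 was highest for the amylases, maltases and glucosidases. For the peritrophins No.1 had 445.7 CPM, more than the 312.1 CPM of No.7. Among all better counted contigs 29.2% were lowest in No.2 and 14.5% in No.1.

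The list of lysosome and acidification genes, with subunits of the vacuolar proton ATPase, Niemann-Pick C1 and cystatins, had 36 of 38 tested contigs called and was the steadiest, with 1454 CPM in No.2 and 2015 to 3116 CPM elsewhere. Of genes that respond to bacteria, the peptidoglycan recognition proteins had 2 of 2 called and 46.5 CPM in No.8 to 338.1 CPM in No.3. Their highest sample was No.5 with TMM. The attacins, cecropins, defensins and diptericins had 21 of 21 called and 4093 CPM in No.2 to 17653 CPM in No.3. No.3 was the lowest sample for lysozyme 1 and the highest for these antimicrobial peptides. Contigs annotated to 1 of a set of bacterial genera had 225 of 235 called and 3157 CPM in No.2 to 8390.1 CPM in No.1. These shares of called contigs lay close to the 95.1% of the whole table.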

How the data were processed

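The authors deposited 1 table with, per contig, its length, its best protein match, the raw counts of reads in each of 8 samples and a scaled signal. The deposited signal equals the counts times 1 factor per sample that brings every total to that of No.6, and it was not used. The contig length in bases is deposited as another column. Per the paper, contigs were assembled from 454 reads and matched by BLASTX. Which reads were counted, and the aligner and program behind the counts, were not given in the sources used here. Columns were matched to samples by their titles. No rows were left out.

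Members were the contigs whose annotation contains lysozyme or cathepsin in any case. Members and lists were chosen with earlier results of these data known. Named contigs were the 3 most counted per class, the 5 least and the 5 most even ones by their highest over their lowest sample (averaging 50 counts or more), and the 3 contigs most like lysozyme 1. Low-count members are given for completeness. CPM used the total counts. Dispersions came from edgeR 4.0.16 with TMM and DESeq2 1.42.0 gave other size factors, in R 4.3.3. The chi-square tests and intervals were computed with scipy 1.17.1 under Python 3.11.15, tables with pandas 2.3.3 and numpy 2.4.6, and plots were drawn with matplotlib 3.10.9. The chi-square test and the dispersion estimate were tested on simulated data. Intervals and floors cover counting error only, and reads split or repeated over overlapping contigs would change single values. Alternatives concerned count minimums, normalization, the contigs of a class and leaving out each sample. The accessions of the members matched no entry of the RefSeq gene table, so no gene, position or sequence is given.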

Additional observations from a re-analysis of the deposited data

Results flagged for a closer look

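Of 40 values checked for a sample far from the others on the linear CPM scale, 10 had one, always above the rest. The number that chance would give for such skewed values was not worked out. The values are also not independent because sums contain single contigs. No.8 was far above the rest for the summed lysozymes with 1046 CPM (next 600.1 CPM), for lysozyme 1, M_dom_c1918, with 940.4 CPM (next 448 CPM) and for the chorion and vitelline contigs with 396.6 CPM (next 27.0 CPM). No.2 was far above the rest for the summed CBBP contigs with 774.4 CPM (next 325.5 CPM), and for M_dom_rep_c5500 with 258.2 CPM, M_dom_rep_c14513 with 362.2 CPM and M_dom_rep_c16181 with 124.5 CPM, which are parts of that sum. No.1 was far above the rest for M_dom_c25967 with 45.7 CPM (next 15.0 CPM), for M_dom_rep_c26767 with 1.86 CPM (next 0.76 CPM) and for the contigs annotated to bacteria with 8390.1 CPM (next 5438 CPM). No label sets these samples apart, and no cause was tested.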

How the results depend on the processing

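All tested members were called under each alternative except the cathepsin L-like contig without No.7 or No.8, and M_dom_rep_c26767 was not tested without No.1: 18 of 18 with a mean count of at least 50, 23 of 23 with at least 1, 22 of 22 with TMM or DESeq2 size factors, and 21 or 22 with a sample left out. Among all contigs, 11843 of 11890 were called at a mean count of at least 50 and 25676 of 29366 at 1. With TMM or DESeq2 size factors 22258 of 23597 were called. Leaving out a sample gave from 20786 of 23007 without No.2 to 22428 of 23811 without No.6. The calls of members therefore say little about lysozymes and cathepsins in particular. The common dispersion was 0.394, and 0.289 to 0.425 with a sample left out, 0.395 with DESeq2 size factors and 0.345 at a mean count of at least 50. The mean of the most counted contig alone was 37.4 CPM for cathepsin F (79.6 CPM summed) and 124.6 CPM for CBBP (322.8 CPM summed), since fewer contigs entered. Adding CBBP to cathepsin B, an alternative chosen after seeing the data, gave 652.6 CPM in place of 329.8 CPM. With summed counts over summed length the mean log2 difference of lysozymes over cathepsin B became -0.66 in place of 0.72, and that of cathepsin B over CBBP 1.78 in place of 2.58; the cause was not tested. TMM and DESeq2 size factors moved the highest sample of 5 of 18 members, with M_dom_c469 highest in No.4 and M_dom_rep_c28758 in No.5, and the lowest of 2. The ratio of lysozyme 1 was 35.6 with TMM and 36.4 with DESeq2 size factors. Left-out samples gave lysozyme means of 358.9 to 478.9 CPM and CBBP means of 258.3 to 346.8 CPM. No paired analysis was possible because only 1 group of samples exists. Depth limits M_dom_rep_c15408, M_dom_rep_c26767 and M_dom_rep_c29466, with 52, 55 and 21 counts in all.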

Other observations

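The search for contigs with a like profile, again with all better counted members left out, was repeated for 3 other members, chosen after their values were seen. The closest to the cathepsin B contig M_dom_c469 was M_dom_rep_c7428, matched to a gene model of *Anopheles gambiae*, with a root mean square log2 difference of 0.11 against a median of 0.69 over all contigs. It had 18.7, 23.6, 37.8, 35.3, 28.3, 31.0, 24.3 and 23.6 CPM in No.1 to No.8. The closest to the CBBP contig M_dom_rep_c14513 was M_dom_rep_c16243, of 467 bp and without a protein match, with a difference of 0.12 against a median of 1.08 and 98.5 CPM in No.2. The next 2, M_dom_rep_c16440 and M_dom_rep_c10677, have no protein match either. The closest to the cathepsin L contig M_dom_rep_c28758 was M_dom_rep_c29746, annotated as midgut trypsin of *Glossina*, with a difference of 0.70 against a median of 2.26. That contig had 1.18, 0.898, 19.5, 30.5, 49.3, 60.8, 88.5 and 42.7 CPM in No.1 to No.8. All contigs share the 8 libraries and these differences carry no test.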
